A study of Mus musculus with 30 samples.

Results

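In the E13.5 mouse forebrain, 3725 acetylated regions carried no crotonylation peak. They were chosen by the peak calls of both marks: peaks of histone H3 acetylated at lysine 9 (H3K9ac) that had a −log10 q of at least 5 in the authors' list and overlapped no peak of histone H3 crotonylated at lysine 9 (H3K9cr). They made up 22.4% of the 16610 H3K9ac peaks in that list and 24.7% of the 15072 that reached the same minimum, and the other 11347 of these overlapped H3K9cr. The choice rests on peak calls of 1 library per mark, so it cannot be told whether a region without a call lacks the mark or holds too little of it to be called.

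Both forebrain ChIP libraries, a forebrain RNA library and the input came from C57BL/6 embryos. Neural stem/progenitor cells (NSPCs) were grown from the forebrain of the same strain at E13.5 with EGF and FGF and passaged before treatment. They received 10 mM crotonate, the salt of a short-chain unsaturated fatty acid, 1 µM MS-275, which inhibits class I histone deacetylases, or the solvent DMSO as control, each for 24 h. RNA was sequenced from 4 NSPC libraries of each of these 3 treatments, and ChIP with pan-specific antibodies against acetyl-lysine (pan-Kac) and crotonyl-lysine (pan-Kcr) from 1 library per treatment and antibody. Forebrain explants of the ICR strain at E13.5 gave 3 crotonate and 3 control RNA libraries, with no dose or time of treatment in the sources used here. The forebrain is a mixture of cells, and NSPCs in culture are only one of the kinds it holds.

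H3K9ac is a mark of active promoters and enhancers. Crotonylation adds a longer, unsaturated acyl group to the same lysines, is laid down by some of the enzymes that acetylate them, chiefly p300/CBP, and is read most strongly by YEATS domain proteins. Class I histone deacetylases remove both groups, and the supply of crotonyl-CoA, which crotonate feeds, influences how much crotonylation is made.

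The promoters of 8 genes at such regions are shown because later results turn on them. They belong to the 3 regions of highest −log10 q that overlap a promoter, and to the first gene with such a promoter among those of highest forebrain RNA and among those most raised or lowered by each treatment. The whole promoter lies under the peak for Eif4enif1, Cntn2 and Ankle1, and 126 of its 300 bases for Tcte3, 224 for Pex7, 213 for Mgarp, 205 for Apln and 186 for Mdfi. Each runs from 250 bases before to 50 after the RefSeq gene start (GRCm38.p6), 5′ to 3′ along the gene, and capitals mark CpG dinucleotides, the sites of DNA methylation in mammals.
Tcte3, chr17:15041510-15041809, minus strand: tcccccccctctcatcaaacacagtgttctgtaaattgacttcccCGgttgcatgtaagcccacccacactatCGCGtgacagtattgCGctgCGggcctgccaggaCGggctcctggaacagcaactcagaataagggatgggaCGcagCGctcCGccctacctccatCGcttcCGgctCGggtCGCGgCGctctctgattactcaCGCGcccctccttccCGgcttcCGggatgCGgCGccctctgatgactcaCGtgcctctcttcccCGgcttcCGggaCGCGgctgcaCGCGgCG
Pex7, chr10:19907625-19907924, minus strand: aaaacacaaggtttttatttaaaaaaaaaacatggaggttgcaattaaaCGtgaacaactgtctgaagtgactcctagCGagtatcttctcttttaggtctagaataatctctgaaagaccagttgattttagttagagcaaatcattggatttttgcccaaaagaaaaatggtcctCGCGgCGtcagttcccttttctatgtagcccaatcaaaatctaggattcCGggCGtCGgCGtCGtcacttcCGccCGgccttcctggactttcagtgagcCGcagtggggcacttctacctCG
Eif4enif1, chr11:3202103-3202402, plus strand: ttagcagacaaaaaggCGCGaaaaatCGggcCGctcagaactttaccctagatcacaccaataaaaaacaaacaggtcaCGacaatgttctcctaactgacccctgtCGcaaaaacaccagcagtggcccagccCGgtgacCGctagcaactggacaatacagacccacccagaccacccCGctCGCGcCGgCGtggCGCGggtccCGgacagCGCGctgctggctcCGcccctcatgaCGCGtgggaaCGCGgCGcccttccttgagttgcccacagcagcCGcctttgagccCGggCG
Cntn2, chr1:132542891-132543190, minus strand: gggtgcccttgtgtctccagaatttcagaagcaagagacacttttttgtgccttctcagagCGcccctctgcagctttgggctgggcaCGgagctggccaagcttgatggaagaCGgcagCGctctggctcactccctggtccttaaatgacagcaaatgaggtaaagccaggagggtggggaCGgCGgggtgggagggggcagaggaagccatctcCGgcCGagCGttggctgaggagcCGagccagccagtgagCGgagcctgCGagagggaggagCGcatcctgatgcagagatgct
Mgarp, chr3:51396498-51396797, minus strand: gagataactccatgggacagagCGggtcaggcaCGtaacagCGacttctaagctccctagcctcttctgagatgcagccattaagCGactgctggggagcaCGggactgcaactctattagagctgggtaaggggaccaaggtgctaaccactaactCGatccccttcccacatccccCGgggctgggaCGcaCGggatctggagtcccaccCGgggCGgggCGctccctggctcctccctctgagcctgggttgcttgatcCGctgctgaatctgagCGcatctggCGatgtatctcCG
Apln, chrX:48034804-48035103, minus strand: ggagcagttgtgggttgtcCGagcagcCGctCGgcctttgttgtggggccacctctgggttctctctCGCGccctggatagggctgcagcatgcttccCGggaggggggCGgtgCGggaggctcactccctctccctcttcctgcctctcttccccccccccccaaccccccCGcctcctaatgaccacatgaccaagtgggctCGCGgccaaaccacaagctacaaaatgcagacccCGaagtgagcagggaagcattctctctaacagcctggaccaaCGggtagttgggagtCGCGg
Mdfi, chr17:47833242-47833541, minus strand: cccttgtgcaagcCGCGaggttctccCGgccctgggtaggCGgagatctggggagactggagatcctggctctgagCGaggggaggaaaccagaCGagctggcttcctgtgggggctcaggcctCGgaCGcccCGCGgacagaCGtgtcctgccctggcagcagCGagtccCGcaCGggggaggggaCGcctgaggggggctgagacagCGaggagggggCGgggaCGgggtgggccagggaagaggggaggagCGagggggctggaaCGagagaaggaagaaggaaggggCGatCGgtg
Ankle1, chr8:71405762-71406061, plus strand: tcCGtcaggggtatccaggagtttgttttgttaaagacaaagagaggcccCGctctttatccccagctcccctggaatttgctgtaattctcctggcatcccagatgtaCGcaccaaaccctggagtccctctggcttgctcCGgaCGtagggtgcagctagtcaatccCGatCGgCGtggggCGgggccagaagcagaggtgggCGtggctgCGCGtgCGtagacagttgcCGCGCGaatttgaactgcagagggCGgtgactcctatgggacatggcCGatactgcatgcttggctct
The promoter of Tcte3, a gene of the axonemal dynein light chain family, held 29 CpG in 300 bases, more than 87.1% of all 32851 promoters in the RefSeq table. Eif4enif1, whose product shuttles the cap-binding protein eIF4E into the nucleus, held 27 CpG, and Mdfi, an inhibitor of myogenic transcription factors, held 22. The promoter of Cntn2, a cell adhesion molecule of axons, held 13 CpG, and its ratio of observed to expected CpG was 0.48, against 0.98 for Tcte3 and 0.99 for Eif4enif1. Pex7, the import receptor for one class of peroxisomal enzymes, had 14 CpG and the lowest GC content of the 8, 44%.

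Regions without H3K9cr were the weak end of the H3K9ac list. Their median −log10 q was 9.95 (range 5.01 to 119), against 88.3 for H3K9ac peaks with H3K9cr. Median enrichment over the control track at the summit was 5.34-fold (1.62 to 26.2), against 19.7-fold, and median width 557 bases (255 to 4067), against 1402 bases. These values are the authors' and belong to the measure that chose the regions, so they describe the choice and are not tested. Together the regions covered 2.40 Mb, against 18.1 Mb for H3K9ac peaks with H3K9cr.

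Among H3K9ac peaks with a −log10 q of 5 to 10, 90.3% (1979 of 2191) had no H3K9cr. The share was 64.5% between 10 and 20, 26.6% between 20 and 30, 8.16% between 30 and 50 and 1.05% (20 of 1903) between 50 and 80. At 80 or more it was 0.0982% (6 of 6113, Wilson 95% interval 0.0450 to 0.214%, which covers counting error only). In the other direction, 54 of 12492 H3K9cr peaks (0.432%) overlapped no H3K9ac peak, so the H3K9cr list lay almost wholly inside the H3K9ac list. The H3K9cr list was itself weaker, with a median enrichment of 8.38-fold, against 12.6-fold in the H3K9ac list. Of the 1538 H3K9ac peaks under the minimum, which are not counted here, 1508 also had no H3K9cr. The 5 regions just inside the minimum had −log10 q values of 5.01 to 5.03 and widths of 313 to 957 bases, and the 5 peaks just outside it had 4.97 to 4.99 and widths of 255 to 745 bases.

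**Figure D1:**
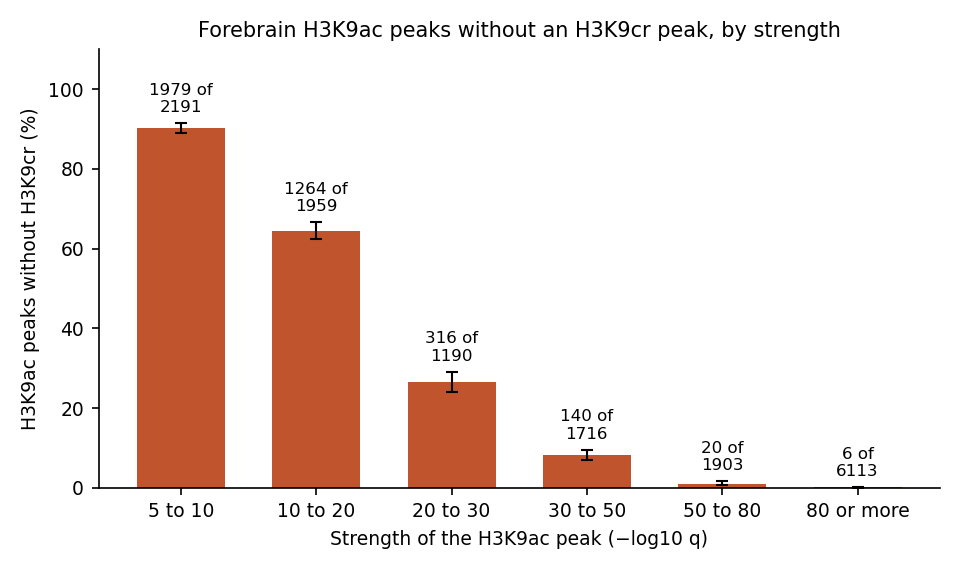
Share of forebrain H3K9ac peaks that overlap no H3K9cr peak (vertical axis, %) in 6 bins of H3K9ac strength (horizontal axis, −log10 q). Bars give the share, whiskers the Wilson 95% interval and numbers the counts: the share is 90.3% in the weakest bin and 0.0982% in the strongest.

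Only 26 regions without H3K9cr reached a −log10 q of 50, against 7990 H3K9ac peaks with H3K9cr. The strongest, chr17:15041137-15041635 at the start of Tcte3 and within Ermard, had 26.2-fold enrichment and a −log10 q of 119, and it lay in none of the 6 NSPC peak lists. The next, chr10:19907440-19907848 at the start of Pex7, had 25.7-fold enrichment and lay in the pan-Kac and pan-Kcr lists of both crotonate and control NSPCs. A region at the start of Eif4enif1 and within Sfi1, chr11:3201856-3202613, combined a −log10 q of 110 with an enrichment of just 8.22-fold. A region at a gene end of Pemt, a phospholipid methyltransferase gene, chr11:60045762-60046677, had a −log10 q of 89.0. The first 10 were completed by regions at Chd1l, a chromatin remodeller recruited in DNA repair, the centrosomal gene Cep192, the non-coding RNA gene Norad, D130040H23Rik and Ppie, and by one between genes, chr8:20557558-20558216, with −log10 q values of 66.6 to 81.4. The other 16 included Chrnb2, a nicotinic acetylcholine receptor subunit, Lss, which makes lanosterol for cholesterol synthesis, and Eif2s3y, a translation initiation factor subunit on the Y chromosome. Of the 26, 17 lay at a gene start, 9 lay in none of the 6 NSPC lists and 15 lay in the pan-Kac list of control NSPCs. Tcte3 and Eif2s3y, and H2-K1 and Kifc5b among genes named later, have close copies elsewhere in the genome, so their values are uncertain, and how the authors treated reads that match several places is not given in the sources used here.

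The widest region, chr14:84442558-84446624 (4067 bases), covered the start of Pcdh17, a protocadherin, and its nearest H3K9ac peak with H3K9cr was 1952 kb away. Grb10, an imprinted adaptor that dampens insulin receptor signalling, had 3298 bases at chr11:12035432-12038729 with a −log10 q of 25.8. A region of 3139 bases lay inside Notch1, the receptor that keeps neural progenitors undifferentiated, and overlapped all 6 NSPC lists. Abcd2, a peroxisomal fatty acid transporter gene, had 2948 bases at a gene end, chr15:91189428-91192375. At Pax6, a transcription factor of cortical progenitors, 2857 bases (chr2:105680096-105682952) without H3K9cr lay only 0.492 kb from an H3K9ac peak with H3K9cr. The median distance to an H3K9ac peak with H3K9cr was 34.0 kb, 19.7% (732) lay within 5 kb and 41.3% (1539) beyond 50 kb, and 8.86% (330) lay within 1 kb of an H3K9cr peak.

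Regions without H3K9cr lay at gene starts, inside genes and between genes. Of the 3594 on chromosomes with gene starts in the RefSeq table, 43.5% (Wilson 95% interval 41.9 to 45.2%) lay within 1 kb of a start, against 76.5% (75.7 to 77.3%) of H3K9ac peaks with H3K9cr. A further 25.2% lay inside genes, against 5.14%, and 15.0% lay between genes, against 2.83%. The remaining 16.3% lay at another gene end, against 15.5%, where starts that the table does not hold may be counted. The gap was smaller among peaks of equal strength. Between −log10 q of 5 and 10 the share at a start was 36.4%, against 45.1% with H3K9cr, and between 20 and 30 it was 60.5%, against 65.5%. The difference was not tested, since each share comes from 1 library. Across the autosomes, the share of H3K9ac peaks without H3K9cr was between 20.7% on chromosome 16 and 29.0% on chromosome 18. It was 28.2% (138 of 489) on the X chromosome, and 2 of 4 peaks on the Y chromosome had no H3K9cr.

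Promoters at these regions held many CpG, though fewer than those at H3K9ac peaks with H3K9cr. The median was 16 CpG in 300 bases over 1711 starts with H3K9ac alone, against 23 over 11626 starts with H3K9cr, and 3 over 19130 starts with no H3K9ac peak. At least 10 CpG were found in 73.8%, against 89.1% and 12.6%. Median GC content was 60.0%, against 62.3% and 47.8%. At equal strength neither set had more CpG throughout. Between −log10 q of 5 and 10 the median was 14 CpG, against 18 with H3K9cr, between 10 and 20 it was 17, against 15, between 20 and 30 it was 19, against 18, and at 30 or more it was 18, against 23. The bin at 30 or more has no upper limit, so strength is not matched in it, for CpG or for the motifs below. Of 7 short motifs searched on both strands, CCGGAAG, the letters bound by ETS factors, was in 8.36% of promoters with H3K9ac alone, against 19.2% with H3K9cr and 8.86% of all promoters. GCATGCG, within the NRF1 motif, was in 3.86%, against 7.20% and 3.58%, and TGACGTC, the CREB site, in 3.57%, against 6.21% and 3.21%. GGGCGG, bound by SP factors, was in 60.4%, against 67.6% and 35.7%. CCAAT was in 38.0%, against 37.4% in both, TATAAA in 7.89%, against 5.87% and 13.6%, and CAGCTG, an E-box, in 16.6%, against 14.2% and 16.3%. The share with CCGGAAG moved with strength, and the order of the sets did not hold in every bin. It was 5.09%, against 8.70% with H3K9cr, between −log10 q of 5 and 10, 7.51%, against 5.29%, between 10 and 20, 17.1%, against 9.24%, between 20 and 30, and 18.3%, against 20.7%, at 30 or more. A match gives the letters alone and does not show that a factor is bound.

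Within 1 kb of a start, 1375 genes had H3K9ac without H3K9cr and no other H3K9ac peak with it (called H3K9ac-only genes below), and 9818 had an H3K9ac peak with H3K9cr. Of the H3K9ac-only genes 1090 were coding and 285 (20.7%) long non-coding, against 13.4% long non-coding among genes with H3K9cr. Coding H3K9ac-only genes were expressed at low levels in the forebrain library, with a median of 4.29 TPM (quartiles 1.25 and 11.9), against 33.7 TPM (15.4 and 73.6) at genes with H3K9cr, 1.06 TPM at genes whose H3K9ac peak was under the minimum and 0 TPM at genes with no H3K9ac peak. At least 1 TPM was reached by 78.2% of them (Wilson 95% interval 75.7 to 80.6%), against 97.5%, 52.7% and 13.3%. At least 50 TPM was reached by 4.07%, against 36.6% of genes with H3K9cr. In bulk tissue, fewer cells of a type and less RNA per cell cannot be told apart.

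The level followed the strength of the acetylation peak in both sets. Between −log10 q of 5 and 10 the median was 2.05 TPM at H3K9ac-only genes, against 3.81 TPM with H3K9cr. Between 10 and 20 it was 4.55 TPM, against 6.56 TPM, and between 20 and 30 it was 9.15 TPM, against 11.3 TPM. At 30 or more it was 16.8 TPM over 80 genes, against 37.3 TPM over 7617. In each bin the H3K9ac-only genes had the lower median, but the bin at 30 or more has no upper limit, so strength is not matched in it.

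**Figure D2:**
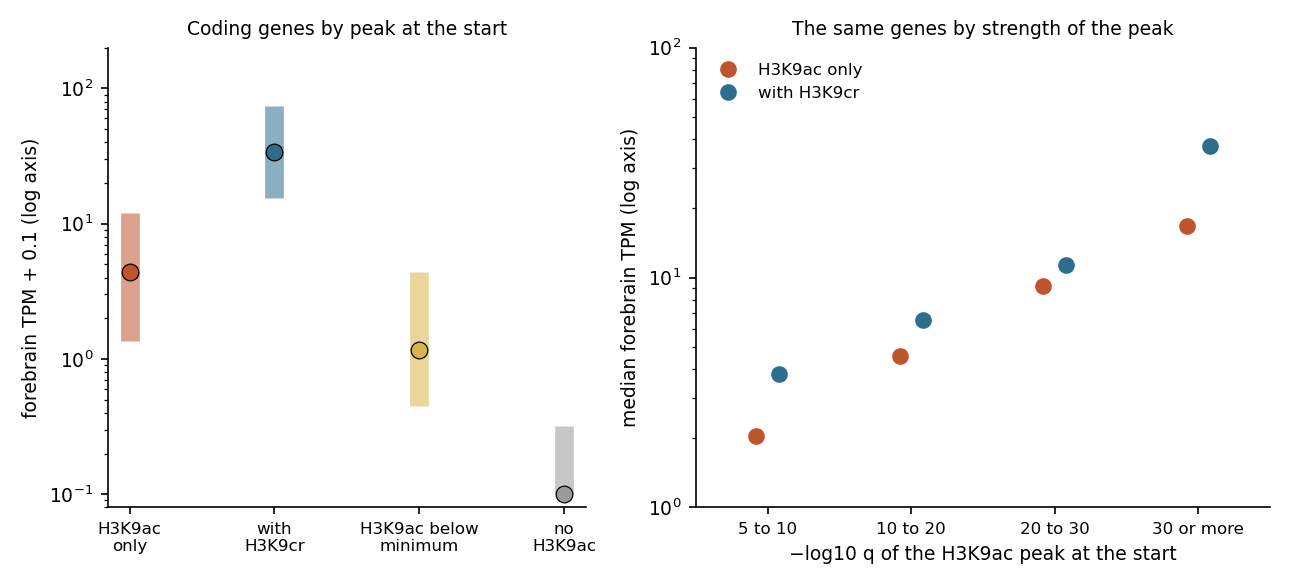
Forebrain RNA of coding genes by the peak at their start. Left: median (point) and quartiles (bar) of TPM + 0.1 on a log axis for H3K9ac-only genes, genes with H3K9cr, genes with H3K9ac under the minimum and genes with none, the medians without the added value being 4.29, 33.7, 1.06 and 0 TPM. Right: median TPM on a log axis in 4 bins of −log10 q for H3K9ac-only genes and genes with H3K9cr, both higher at stronger peaks.

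Among H3K9ac-only genes, Cntn2 had the highest forebrain RNA with 171 TPM, followed by Ndufa1, a subunit of respiratory complex I on the X chromosome, with 162 TPM. Rtl8b, derived from a retrotransposon, had 157 TPM, the chemokine gene Ccl27a 156 TPM and Grb10 153 TPM. Bex1 and Bex4, X-linked genes of small adaptor proteins of neurons, had 124 and 113 TPM, and Pax6 had 112 TPM. Zfand6, a zinc finger protein gene, and Phldb1, whose product anchors microtubules at the cell cortex, had 147 and 139 TPM.

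Among gene lists, H3K9ac-only genes were few and uneven. Over all 27025 genes with a start 5.09% were H3K9ac-only, and 6.23% of coding genes. Of 19 matched genes of ventral forebrain and GABAergic neurons 4 were (Lhx8, Ebf1, Erbb4 and Npy), and 14 had H3K9cr. Of 21 neural stem and radial glial genes 3 were (Pax6, the glutamate transporter Slc1a3 and the homeodomain protein Hopx), and 17 had H3K9cr. Of 16 neuroendocrine genes repressed by REST 3 were (Cdk5r2, Kcnh2 and Pcsk1), and 12 had H3K9cr. Both H3K9ac-bearing genes among 11 endothelial markers, the VEGF receptor gene Kdr and the transcription factor gene Erg, were H3K9ac-only, with none bearing H3K9cr. Of 17 interferon response genes 2 were (Ifit2 and the MHC class I gene H2-K1), and 4 had H3K9cr. No gene was H3K9ac-only among 22 cytosolic ribosomal proteins, 24 RNA processing factors, 13 aminoacyl-tRNA synthetases, 21 genes of G2/M and mitosis and 20 acyltransferases and acyl-lysine readers, which all had H3K9cr, nor among 21 Hox and similar patterning genes, which had no H3K9ac peak. A single gene each was H3K9ac-only among the proneural (Neurod1), cortical neuron (Cntn2), synapse (Syn2), oxidative phosphorylation (Ndufa1), DNA repair (Fanca) and deacetylase lists (Hdac8). The lists of pericytes, microglia, red blood cells and Cajal-Retzius or choroid plexus cells held none. These counts are small and were not tested.

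The forebrain library matched its label. All 25 neural stem and 25 cortical neuron markers reached 1 TPM, and no Hox or similar patterning gene of 30 did. Red blood cell genes summed to 11937 TPM, and 18 of 18 endothelial markers reached 1 TPM at a median of 5.59 TPM. In NSPCs the number of genes at 1 TPM or more was 14388 to 14595 with crotonate, 14565 to 14854 with MS-275 and 13444 to 13696 in control libraries. The lowest correlation between libraries of a group was 0.981. The tables give no read counts, so depth is unknown.

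By an overlap of at least 1 base, most regions without H3K9cr also appeared in a peak list from cultured NSPCs, and more of them met a Kcr peak with crotonate than in control cells. The pan-Kcr list of crotonate NSPCs overlapped 44.8% of them (1670, Wilson 95% interval 43.2 to 46.4%), against 23.5% (874, 22.1 to 24.9%) for the list of control NSPCs. The pan-Kac lists overlapped 42.0% with crotonate and 33.6% in control. With MS-275 the shares were 13.6% for pan-Kac and 10.7% for pan-Kcr, but those lists hold only 7555 and 5845 peaks, against 23427 and 17669 in control. At least 1 of the 6 lists overlapped 61.2% of the regions. Where a list had to cover at least 50% of the region, pan-Kcr overlapped 17.6% with crotonate and 7.03% in control, and pan-Kac 18.3% and 11.8%. These lists give positions alone, come from 1 library each and differ in size, and the parts of calling and of the cells in a difference between them cannot be told apart.

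In single regions, 964 (25.9%) overlapped Kcr with crotonate and not in control, and 168 (4.51%) the reverse. Among H3K9ac peaks with H3K9cr these shares were 15.5% and 7.53%. At equal strength, the shares found with crotonate and not in control were 25.4% of regions without H3K9cr against 33.0% with it between −log10 q of 5 and 10. They were near each other at 27.0% against 27.1% between 10 and 20, and 26.6% against 26.4% between 20 and 30. At 30 or more they were 22.3% against 13.2%. The shares in control alone were 3.79%, 4.51%, 6.96% and 8.43% from the weakest bin to the strongest, against 4.25%, 3.88%, 5.03% and 8.09% with H3K9cr. The list of crotonate NSPCs was the larger, with 23301 peaks against 17669. For pan-Kac, 17.1% of the regions were found with crotonate and not in control and 8.75% in control alone, although the crotonate list was the smaller, with 21616 peaks against 23427. For H3K9ac peaks with H3K9cr these shares were 7.76% and 13.6%. At equal strength the shares found with crotonate and not in control were 17.0%, against 22.6% with H3K9cr, between −log10 q of 5 and 10, 18.4%, against 17.1%, between 10 and 20, and 15.2%, against 16.6%, between 20 and 30. At 30 or more they were 11.4%, against 5.95%. In control alone the pan-Kac shares were 6.77%, 9.73%, 12.7% and 17.5% from the weakest bin to the strongest, against 8.96%, 9.06%, 10.2% and 14.4% with H3K9cr. For both marks the control-alone share was lower without H3K9cr only between 5 and 10. The last bin has no upper limit.

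H3K9ac peaks with H3K9cr overlapped the NSPC lists far more over all strengths, 77.6% for pan-Kac and 68.7% for pan-Kcr of control cells. Most of that gap was not there among peaks of equal strength. Between −log10 q of 10 and 20, the pan-Kac list of control cells overlapped 40.3% of regions without H3K9cr, against 46.8% of peaks with it, and the pan-Kcr list of control cells 29.0%, against 36.1%. Between 30 and 50 the gap was wider, 54.3% against 64.5% for pan-Kac and 32.9% against 53.7% for pan-Kcr.

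**Figure D3:**
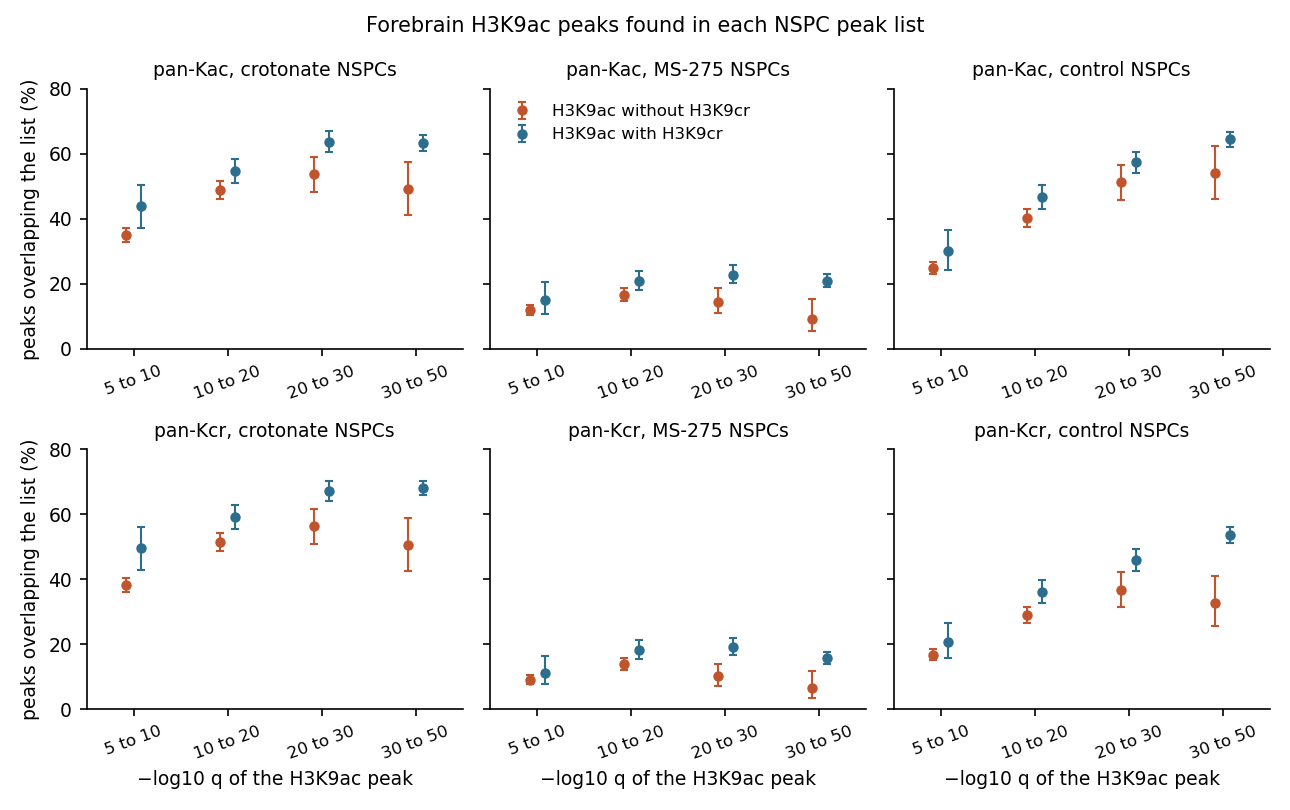
Share of forebrain H3K9ac peaks overlapping each of the 6 NSPC peak lists (vertical axes, %) in 4 bins of −log10 q (horizontal axes). Points give the share for peaks without and with H3K9cr, whiskers the Wilson 95% interval: in pan-Kcr of control cells, 16.8% and 20.8% in the weakest bin and 32.9% and 53.7% between 30 and 50.

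The RNA of H3K9ac-only genes was mostly higher in crotonate NSPCs than in control NSPCs. Of the 1375 genes 935 passed the filter of 1 TPM in at least 4 of 12 libraries, and 569 of these (60.9%) were called higher, against 32.3% of all 14857 genes tested, by limma on log2(TPM + 1) with a Benjamini-Hochberg adjusted p under 0.05. Lower calls numbered 63 (6.74%), against 15.9% of all genes. The median log2 fold change was 0.43, against 0.09 over all genes. Of the 935, 200 had fewer than 4 control libraries at 1 TPM, so the filter could keep them for being high after treatment. Among the 735 with all 4 controls at 1 TPM, 424 were higher (57.7%), against 30.4% of all genes so restricted, and 63 were lower (8.57%), against 18.7%. Scaling changed the balance: with quantile normalization, which moved the median of all genes to -0.05, 358 of the 935 (38.3%) were higher, against 20.8% of all genes, and 118 (12.6%) lower, against 24.8%. With median-of-ratios scaling (median -0.03) 484 (51.8%) were higher, against 23.6% of all genes, and 96 (10.3%) lower, against 28.4%. Crotonate and MS-275 are set against the same 4 control libraries, so their results are not independent.

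With MS-275, 607 of the 935 genes (64.9%) were called higher than in control NSPCs, against 37.4% of all genes tested, and 102 (10.9%) lower, against 27.6%. The median log2 fold change was 0.55, against 0.08 over all genes. Among genes with 4 controls at 1 TPM, 446 of 735 (60.7%) were higher, against 34.7% of all genes so restricted. Quantile normalization gave 471 higher calls (50.4%), against 29.6% of all genes, and 161 lower (17.2%), against 34.1%.

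Over all strengths, 27.5% of genes with H3K9cr were called higher with crotonate and 32.2% with MS-275. Genes with little or no H3K9ac in the forebrain gave shares nearer to those of the H3K9ac-only genes. With crotonate 64.8% of 159 genes whose H3K9ac peak was under the minimum and 48.5% of 1316 genes with no H3K9ac peak were called higher. With MS-275 the shares were 64.8% and 59.9%. The filter could keep genes of both classes for being high after treatment, which favours higher calls. Of coding genes with no H3K9ac peak, 784 reached 1 TPM in control NSPCs, 1076 with crotonate and 1177 with MS-275. The shares of both classes among genes with all 4 controls at 1 TPM were not computed, so the part of the filter is unknown. At equal strength of the H3K9ac peak below 30, genes with and without H3K9cr had similar shares. Between −log10 q of 5 and 10, crotonate raised 71.5% of 351 H3K9ac-only genes, against 80.6% of 67 genes with H3K9cr. Between 10 and 20 it raised 58.9% of 358, against 58.6% of 263, and between 20 and 30, 50.0% of 146, against 55.1% of 414. At 30 or more it raised 42.5% of 80, against 24.5% of 7748. For MS-275 the 4 shares of H3K9ac-only genes were 72.9%, 60.9%, 65.1% and 47.5%, against 76.1%, 58.9%, 59.2% and 29.4% with H3K9cr. In both sets the share called higher with crotonate was largest where forebrain H3K9ac was weakest. Among genes with all 4 controls at 1 TPM, these shares with crotonate were 68.5%, 56.2%, 49.6% and 42.7% at H3K9ac-only genes, from the weakest bin to the strongest, against 78.7%, 57.3%, 53.6% and 24.1% with H3K9cr. The last bin has no upper limit and holds few H3K9ac-only genes. At equal mean NSPC level the shares lay further apart. Between 10 and 30 TPM crotonate raised 55.4% of H3K9ac-only genes, 29.4% of genes with H3K9cr and 33.6% of all genes. These differences between sets of genes were not tested.

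**Figure D4:**
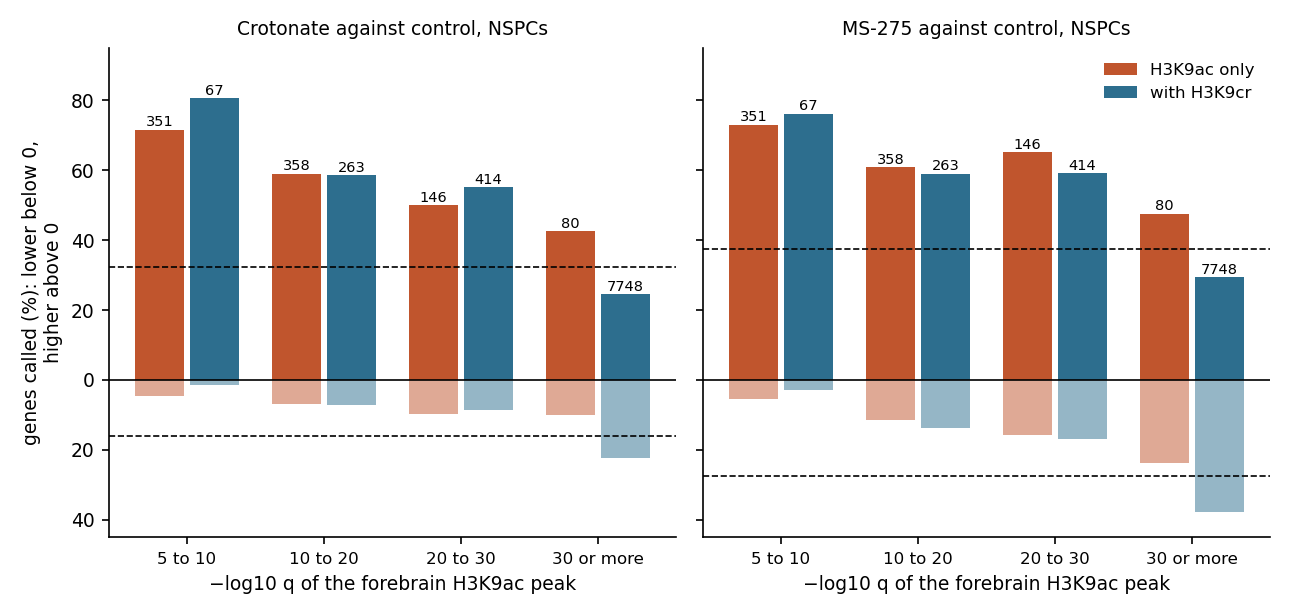
Share of tested NSPC genes called higher (above 0) or lower (below 0, paler) than control, for H3K9ac-only genes and genes with H3K9cr, in 4 bins of forebrain H3K9ac strength (−log10 q). Numbers give genes tested and dashed lines the share of all 14857 genes: with crotonate the bars of both sets are highest in the weakest bin, 71.5% and 80.6%.

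The share called higher also differed by the Kcr peaks found in NSPCs. Of 304 tested H3K9ac-only genes whose region was in the pan-Kcr list of crotonate and not of control NSPCs, 208 (68.4%) were higher with crotonate, with a median log2 fold change of 0.61. Genes with Kcr in both lists numbered 259, of which 58.7% were higher, and genes with Kcr in neither numbered 332, of which 58.4% were higher. Of 40 genes with Kcr in control alone, 15 (37.5%) were higher. Among genes with all 4 controls at 1 TPM, 141 of 217 (65%) with Kcr after crotonate and not in control were higher, 59.2% of 245 with Kcr in both lists, 52.8% of 233 with Kcr in neither and 37.5% of 40 with Kcr in control alone. Their median control levels were 7.36, 13.3, 7.79 and 15.1 TPM in the same order, and the part of level in the result was not tested.

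Among the 10 genes most raised by crotonate, log2 fold changes were 2.15 to 3.18, and control means did not exceed 4.47 TPM. Tpm2, a tropomyosin of the actin cytoskeleton, had 30.6, 31.5, 32.1 and 30.4 TPM with crotonate and 37.1, 42.6, 33.8 and 35.9 TPM with MS-275, against 1.91, 2.21, 2.76 and 3.5 TPM in control. Its log2 fold change was 3.18 ± 0.12 with crotonate and 3.43 ± 0.12 with MS-275 (SE, n = 4, limma adjusted p = 5.12e-09 and 3.45e-10). All treated libraries stood apart from the controls. Mgarp, a mitochondrial protein gene whose promoter is shown above, had 14.3, 15.9, 16.4 and 18.3 TPM with crotonate and 38.2, 43.6, 46.1 and 36.3 TPM with MS-275, against 0.441, 1.06, 1.36 and 2.48 TPM in control. Its MS-275 libraries lay above the crotonate libraries, with log2 fold changes of 4.24 ± 0.20 and 2.95 ± 0.20. Rcn3, a calcium-binding protein of the endoplasmic reticulum, averaged 36.6 ± 6.01 TPM with crotonate and 50.4 ± 0.730 TPM with MS-275, against 4.47 ± 1.42 TPM in control (SD, n = 4).

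Emilin2, an extracellular matrix glycoprotein, and Gabra3, a GABA-A receptor subunit, had higher means with crotonate than with MS-275. Emilin2 had 14.3, 13.8, 16.5 and 9.81 TPM with crotonate and 7.34, 10.0, 6.87 and 3.67 TPM with MS-275, against 0.725, 1.13, 1.06 and 1.17 TPM in control. Gabra3 had 7.67 to 11.6 TPM with crotonate and 3.73 to 5.45 TPM with MS-275, against 0.253 to 1.11 TPM in control. Syt3, a calcium sensor of vesicle release, went the other way, with 6.65 to 11.5 TPM and 16.8 to 24.6 TPM, against 0.794 to 1.32 TPM. The direct contrast of the treatments was not tested here. The other 4 of the 10 were Kcp, Mdfi, Rnase4 and Tceal5. These genes were chosen for their rise. Some of them, such as Kcp, had all control libraries under 1 TPM, so the filter could keep them for their treated libraries. In 8 of the 10 the region lay in the pan-Kcr list of crotonate NSPCs, against 60.2% of the 935 tested H3K9ac-only genes, and in none of the 10 in that of control NSPCs, against 32.0%. The 935 genes were not matched to the low control level of the 10, and a link between Kcr and RNA was not tested.

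With MS-275 the list of 10 also held S100a11, Tspan17 and Cabp1. S100a11, a calcium-binding protein of the cell cortex, had 460, 452, 450 and 378 TPM with MS-275 and 216, 209, 241 and 222 TPM with crotonate, against 62.7, 73.0, 67.2 and 49.4 TPM in control. The 3 groups did not overlap, and the log2 fold changes were 2.78 ± 0.10 and 1.81 ± 0.10. Cabp1, a neuronal calcium sensor, had 26.7 to 29.6 TPM with MS-275, against 2.53 to 4.66 TPM in control.

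**Figure D5:**
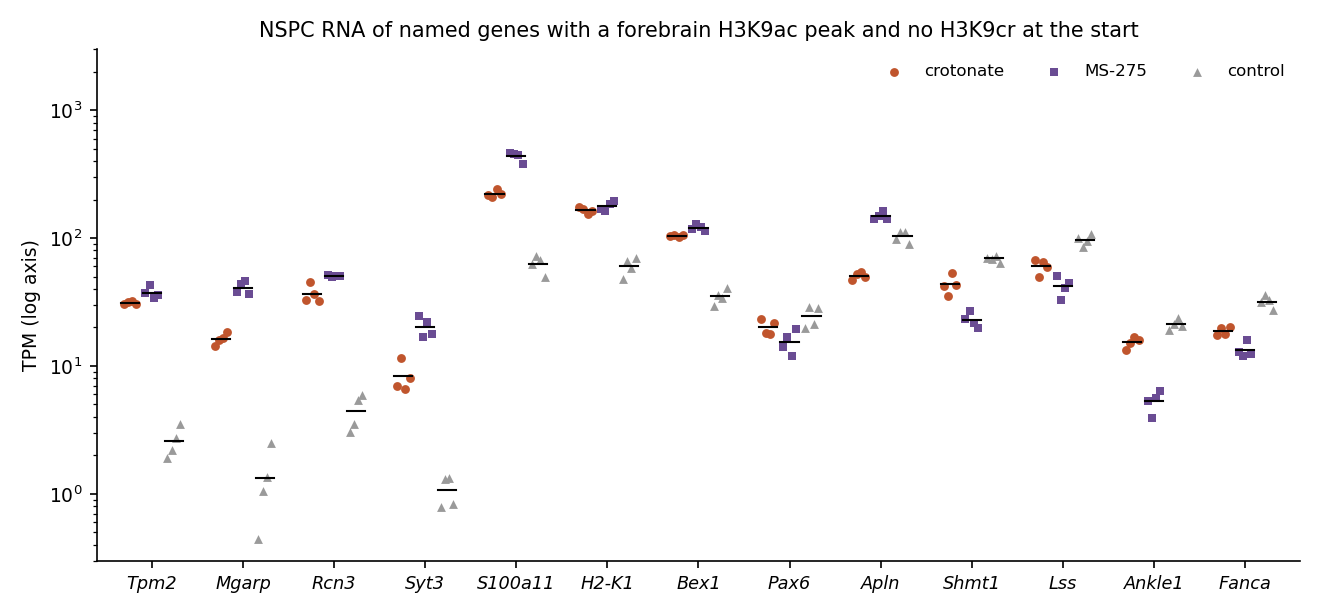
TPM in each NSPC library (log axis) for 13 H3K9ac-only genes. Circles are crotonate, squares MS-275 and triangles control libraries (4 each), and lines are group means: Tpm2 averages 31.2, 37.4 and 2.59 TPM, and Ankle1 15.3, 5.32 and 21.2 TPM.

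The genes that fell were fewer and changed less, with log2 fold changes of -0.56 to -1.0 for the first 10 with crotonate. Apln, the peptide ligand of the apelin receptor, fell with crotonate to 46.7, 52.4, 54.5 and 49.9 TPM and was higher with MS-275 at 141, 150, 162 and 140 TPM, against 99.3, 112, 112 and 89.8 TPM in control. Its log2 fold change was -1.0 ± 0.08 with crotonate and 0.52 ± 0.08 with MS-275 (SE, limma adjusted p = 6.42e-07 and 5.40e-05). Phldb1 likewise was lower with crotonate, at 36.9 to 42.2 TPM, and higher with MS-275, at 69.2 to 79.4 TPM, against 42.6 to 56.6 TPM in control. Shmt1, the cytosolic serine hydroxymethyltransferase, had 42.0, 35.4, 53.6 and 42.9 TPM with crotonate and 23.2, 27.0, 21.7 and 19.6 TPM with MS-275, against 70.2, 69.3, 73.1 and 64.4 TPM in control. Lss averaged 60.2 TPM with crotonate and 42.2 TPM with MS-275, against 97.4 TPM in control.

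Ankle1, an endonuclease that cuts DNA in mitosis, had 5.33, 3.9, 5.63 and 6.42 TPM with MS-275 and 13.3, 15.1, 16.8 and 16.1 TPM with crotonate, against 19.1, 21.4, 23.7 and 20.7 TPM in control. Its log2 fold change was -1.82 ± 0.12 with MS-275, the largest fall among the H3K9ac-only genes named, and -0.45 ± 0.12 with crotonate. Cit, the citron kinase of cytokinesis, Espl1, the separase that parts sister chromatids, Cenpi, a centromere protein, Tedc1, a centriole protein, and Fanca, of the Fanconi anaemia repair pathway, fell with both treatments, and their log2 fold changes lay between -0.60 and -0.77 after crotonate and between -1.20 and -1.36 after MS-275. Cep128, another centriole protein, had 3.52 to 3.8 TPM with MS-275, against 9.40 to 12.4 TPM in control, a log2 fold change of -1.28 ± 0.14. With crotonate its log2 fold change was 0.13 ± 0.14 (adjusted p = 0.477). Kifc5b, a kinesin gene with a close copy, had 11.6 to 13.3 TPM with MS-275 and 18.8 to 25 TPM with crotonate, against 29.9 to 33.6 TPM in control. Cdc42ep1, an effector of the Cdc42 GTPase, completed the 10 lowered by crotonate, with 32.9 to 40 TPM, against 54.0 to 64.8 TPM in control.

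The 10 H3K9ac-only genes of highest forebrain RNA gave 9 that were tested in NSPCs, of which 7 were higher and 1 lower with crotonate, and 6 higher and 2 lower with MS-275. The shares over all genes tested were 32.3% higher and 15.9% lower with crotonate, and 37.4% and 27.6% with MS-275. Bex1 had 104, 106, 103 and 105 TPM with crotonate and 119, 128, 121 and 115 TPM with MS-275, against 29.5, 36, 34.3 and 40.4 TPM in control. The treated libraries of both kinds lay above all controls, with log2 fold changes of 1.55 ± 0.07 and 1.76 ± 0.07. Bex genes are close relatives, and reads shared among them could be split by the authors' estimation. Ccl27a had 5.08 to 9.18 TPM with crotonate and 7.97 to 12.8 TPM with MS-275, against 1.85 to 2.42 TPM in control. Cntn2, the first of them in the forebrain, averaged 0.380 TPM in control NSPCs and was not tested.

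The 20 H3K9ac-only genes of the lists gave 15 that were tested, of which 9 were higher and 1 lower with crotonate, and 8 higher and 2 lower with MS-275. Over all genes tested 32.3% were higher and 15.9% lower with crotonate, and 37.4% and 27.6% with MS-275. The list genes' share higher with crotonate was close to the 60.9% of all H3K9ac-only genes. Some of the 15, such as Kdr and Cdk5r2, averaged under 1 TPM in control, so the filter could keep them for their treated libraries. H2-K1 had 175, 168, 155 and 162 TPM with crotonate and 169, 163, 186 and 197 TPM with MS-275, against 48.0, 66.4, 58.7 and 69.7 TPM in control. Cdk5r2, an activator of the neuronal kinase Cdk5, averaged 3.03 TPM and 4.93 TPM, against 0.690 TPM. Kdr averaged 2.03 TPM and 3.59 TPM, against 0.532 TPM, while Erg averaged 0.319 TPM and 0.189 TPM, against 0.233 TPM. Syn2, a protein of synaptic vesicles, averaged 21.1 TPM and 22.4 TPM, against 12.8 TPM. Pax6 was lower with MS-275 (log2 fold change -0.64 ± 0.16, adjusted p = 0.00293), and with crotonate the value was -0.26 ± 0.16 (adjusted p = 0.190). Slc1a3, the most abundant of them, had 449 to 585 TPM with crotonate and 395 to 505 TPM with MS-275, against 383 to 512 TPM in control, and its groups overlapped. Its adjusted p with crotonate was 0.0772, and 0.00144 with the replicate number as a block. It was 0.0130 with quantile normalization, 0.0308 without control library 1 and 0.0286 without crotonate library 2. Neurod1 and Npy were also called higher with crotonate under the block (adjusted p = 0.00952 and 0.0460, against 0.0649 and 0.0973 without it). Leaving out crotonate library 1 gave both calls too (0.0162 and 0.0366), and leaving out control library 3 gave that of Npy (0.0157). Hopx was higher with crotonate, and its call with MS-275 (adjusted p = 0.0214) was lost without control library 2 (0.0613) or 4 (0.0673) and without MS-275 library 1 (0.0520) or 3 (0.0603). The call of Ndufa1 with crotonate (0.0181) was lost without crotonate library 4 (0.0564).

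The 26 strongest regions marked 16 H3K9ac-only genes. Of these 14 were tested, and 5 were higher and 1 lower with crotonate (median log2 fold change 0.09) and 6 were higher and 4 lower with MS-275. Over all genes tested 32.3% were higher and 15.9% lower with crotonate, and 37.4% and 27.6% with MS-275. The counts are small and were not tested against these shares. Pex7 had 35.5, 42.0, 39.3 and 31.5 TPM with crotonate and 50.6, 49.2, 46.1 and 45.5 TPM with MS-275, against 24.1, 22.0, 20.2 and 17.9 TPM in control, with no overlap. Hcfc1r1, which shares its region with Thoc6, had 69.9 to 87.3 TPM with MS-275, against 22.6 to 31.3 TPM in control. Tcte3, at the strongest region of all, stayed under 1 TPM on average in all 3 groups and had 1.15 TPM in the forebrain. Eif2s3y had 85.8 and 85.8 TPM in crotonate libraries 1 and 4 and at most 0.110 TPM in libraries 2 and 3. It had 92.2 and 87.9 TPM in MS-275 libraries 1 and 4 and at most 0.0595 TPM in 2 and 3, against 76.1 and 74.5 TPM in control libraries 1 and 4 and at most 0.0530 TPM in 2 and 3. This Y-linked gene thus splits the replicates of every treatment in the same way.

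In forebrain explants few H3K9ac-only genes were called higher with crotonate. Of the 908 tested in the authors' deposited table, 56 (6.17%) were higher, against 10.5% of all 14507 genes tested there, and 78 (8.59%) were lower, against 9.75%. Genes with little or no H3K9ac had similar shares. Of 145 whose H3K9ac peak was under the minimum 6.21% were higher and 8.28% lower, and of 1090 with no H3K9ac peak 5.05% and 8.35%. Among 8440 genes with H3K9cr 12.3% were higher and 10.3% lower. The median log2 fold change was -0.01, against 0.00 over all genes, in the authors' deposited table. Of the 491 called higher in crotonate NSPCs and tested in explants, 36 were higher and 43 lower in the authors' deposited table. Grb10 was lower there, with a log2 fold change of -0.32 ± 0.02 (SE, adjusted p = 9.74e-50 in the authors' deposited table), whereas in NSPCs it averaged 25.8 TPM with crotonate, against 9.49 TPM in control. Cntn2 was higher in explants by 0.25 ± 0.02 on the log2 scale (adjusted p = 1.23e-40 in the authors' deposited table), and Neurod1 by 0.45 ± 0.06 (adjusted p = 1.01e-11). Eif2s3y had a log2 fold change of 13.02 ± 1.18 in the authors' deposited table, so the crotonate and control explants differed in RNA of this Y-linked gene, and its part in the other values was not tested. Strain, preparation and possibly dose and time differ between explants and NSPCs, and their parts cannot be told apart.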

How the data were processed

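Forebrain H3K9ac and H3K9cr peaks (1 library each) are the authors' MACS2 2.2.5 calls on GRCm38 after Bowtie2 2.3.5.1, per the submitters' processing notes. Per the layout of the deposited lists, they give positions, an integer score, fold enrichment and −log10 p and q for each peak. The 6 NSPC lists deposited by the authors give positions alone. TPM, length-corrected shares of each library's transcripts, were made by the authors with Salmon 1.0.0, per the submitters' processing notes. For explants, the authors' deposited table gives DESeq2 1.26.0 values: a mean normalized count (signal), log2 fold change and its SE, a test score, and p-values with adjusted p-values. Calling thresholds and the treatment of multiply mapped reads are not given in the sources used here. The files hold no read counts, so depth is unknown.

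A gene start counted as marked when a peak lay within 1 kb. Starts, names and promoter sequences came from the RefSeq table (GRCm38.p6), which holds 32851 starts of 27025 genes, none on chromosome 18, and is not complete, so 131 regions have no place. Of these genes 77.5% had a TPM value, 251 of them matched by a synonym. NSPC genes that reached 1 TPM in 4 or more of the 12 libraries were tested with limma 3.58.1 in R 4.3.3 on log2(TPM + 1), in 1 fit over the 3 treatments with Benjamini-Hochberg adjustment over 14857 genes and a threshold of 0.05. Fold changes are on that scale, which understates the change of low genes. Replicate numbers are the labels', which call them biological replicates. Deviations of same-numbered libraries correlated at 0.119 to 0.241 and those of other libraries at -0.197 to 0.0993, so the numbers pair the libraries. The counts, SE and adjusted p reported for NSPCs come from the fit that leaves this pairing out, unless a block is named. A fit blocked on the replicate number was one alternative, and it gave 582 higher calls with crotonate, against 569. Wilson 95% intervals cover counting error only.

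On simulated data of 14857 genes, the crotonate test recovered 80.6% of 67 genes changed 1.5-fold, 97.0% of 67 at 2-fold and 100% of 66 at 4-fold. There were 8 false calls among 14657 unchanged genes. The changed genes were drawn only from those above a minimum control level. Recovery at low control levels was thus not measured, and these shares cannot be carried over to the H3K9ac-only genes. The coding ones had a median of 4.21 TPM in control NSPCs. The overlap count found 700 of 700 overlaps among 2000 simulated peaks.

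Named regions are the 10 of highest −log10 q and the 5 widest, with Chrnb2, Lss and Eif2s3y of the 26 strongest chosen after their values were seen. Named genes are the 10 H3K9ac-only genes of highest forebrain TPM, up to 3 per list, and the 10 per direction and treatment with the largest called log2 fold change whose 4 treated libraries lay beyond all controls, leaving out predicted genes and those averaging under 5 TPM in both groups. Genes of the 26 strongest regions were added after their values were seen. The regions, lists and tests were chosen with earlier results of these data known. Methylation, IgG and input data were not used here.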

Additional observations from a re-analysis of the deposited data

Results flagged for a closer look

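Among the named H3K9ac-only genes, 75 groups of 4 NSPC libraries were checked for a library standing far from the other 3, on log2(TPM + 1) with Dixon's 95% critical value for 4 samples. Chance alone would give about 1 in 20, and 3 were found. Kcp, an extracellular regulator of BMP signalling, had 7.81 TPM in 1 MS-275 library, against 12.2 to 12.7 TPM in the other 3. S100a11 had 378 TPM in 1 MS-275 library, against 450 to 460 TPM in the other 3. Cep128 had 12.4 TPM in 1 control library, against 9.40 to 9.68 TPM in the other 3. For Kcp and S100a11 the library that stood apart still lay above every control library, and for Cep128 above every MS-275 library.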

How the results depend on the processing

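Recomputed under the other settings, the counts and shares came out close to those reported 62 times and moved 40 times. With a minimum −log10 q of 10 there were 1746 regions. The share at a gene start was 48.6% within 2.5 kb, 25.8% for regions overlapping the start and 52.6% within 1 kb of either gene end. Overlap of at least 50% of the region lowered the NSPC shares to 18.3% (pan-Kac) and 17.6% (pan-Kcr) with crotonate, 3.28% and 2.79% with MS-275, and 11.8% and 7.03% in control. Regions with a −log10 q of at least 10 gave 49.8% and 52.2%, 15.4% and 12.4%, and 43.6% and 31.0% in the same order. The differences between regions without and with H3K9cr depended on strength and width. For pan-Kac with crotonate the difference was -29.7 percentage points, and -7.33 within quartiles of −log10 q, -15.7 within quartiles of width and -8.24 within 6 bins of −log10 q, the last added after seeing the data. For pan-Kcr with crotonate these were -31.8, -10.2, -17.5 and -10.4. With MS-275 they were -8.92, -3.49, -2.43 and -4.42 for pan-Kac, and -9.20, -2.96, -2.40 and -3.91 for pan-Kcr. In control they were -43.9, -9.54, -23.9 and -6.12 for pan-Kac, and -45.2, -8.97, -22.6 and -6.21 for pan-Kcr. Counting also genes with such a region and an H3K9ac peak with H3K9cr gave, over 1336 genes, a forebrain median of 6.37 TPM and 82.3% at 1 TPM. In NSPCs, median-of-ratios scaling gave 96 lower calls with crotonate, and quantile normalization gave 358 higher and 118 lower calls with crotonate and 161 lower with MS-275. Leaving out 1 library gave 543 to 559 higher and 53 to 61 lower calls with crotonate, and 581 to 602 and 96 to 100 with MS-275. The replicate block gave 582 and 73 with crotonate, and 611 and 108 with MS-275. Over the named genes 11 calls were gained and 11 lost across settings, and none changed direction. With quantile normalization Erbb4 lost both calls (adjusted p = 0.434 with crotonate and 0.834 with MS-275), Ifit2 that with MS-275 (0.663) and Kcnh2 that with crotonate (0.0888). With median-of-ratios scaling Ndufa1 lost its call with crotonate (0.243) and Hopx that with MS-275 (0.0937). The causes were not tested, beyond fewer libraries or peaks where a setting leaves them out. Each ChIP list comes from 1 library, the NSPC lists carry no strength, and weak H3K9cr below the calling threshold cannot be seen in these lists.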
